A study of Mus musculus with 12 samples.

Results

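RNase P RNA and other small structured RNAs were followed in mouse lateral ventricle choroid plexus (LV ChP), the tissue that secretes cerebrospinal fluid, in RNA bound to tagged ribosomes and in the RNA left unbound. The set holds 7 genes named by symbol, Rpph1, Rprl1, Rprl2, Rprl3, Rmrp, Rn7sk and Terc, of which 6 had a row among the 24327 genes kept. Rn7sk, the 7SK RNA, had no row and was not analysed here. The symbols were chosen by name with earlier FPKM results of these data known, and were selected on the difference between TRAP and supernatant FPKM of Rpph1 and Rprl3, so that difference is described for them without a test. The mice were male and heterozygous for Foxj1:Cre and for a floxed EGFP-L10a allele, which tags the ribosomal protein RPL10A in cells where Foxj1:Cre, a driver for ciliated epithelium, has acted. All 12 libraries analysed here share this genotype. Cre-negative controls, which the study mentions, were not analysed here. Tissue was taken at 9 a.m. or 9 p.m. under lights on from 7 a.m. to 7 p.m., and each library came from LV ChP pooled from 3 mice (8 weeks old by the study's methods, 60 days by the sample labels). RPL10A-associated RNA (TRAP, translating ribosome affinity purification) and supernatant RNA gave 3 libraries each per time.

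RNase P is the enzyme that trims the 5′ end of precursor tRNAs, and Rpph1 encodes its catalytic RNA. Rmrp encodes the RNA of RNase MRP, a related enzyme that shares most of its proteins with RNase P and acts in ribosomal RNA processing. Terc is the template RNA of telomerase, and 7SK RNA holds the elongation factor P-TEFb inactive. None of these RNAs is translated, and they work as particles with proteins. The Rprl genes are annotated as RNase P RNA-like.

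The RNase P RNAs are alike enough in sequence to matter for reads of 50 nt. In the GENCODE M21 annotation of GRCm38, which mm10 names as well, Rpph1 is a ribozyme gene of 319 bases at chr14:50807449-50807767 on the minus strand, Rprl3 lies at chr8:3803069-3803358 (minus), Rprl2 at chr3:22251374-22251663 (plus), Rprl1 at chr6:69326844-69327170 (minus) and Rmrp at chr4:43492783-43493063 (minus). Bases 1 to 182 of Rpph1 align without a gap to bases 1 to 182 of each Rprl RNA, and are shown here in lower case, with the bases that differ from Rpph1 in capitals.
Rpph1: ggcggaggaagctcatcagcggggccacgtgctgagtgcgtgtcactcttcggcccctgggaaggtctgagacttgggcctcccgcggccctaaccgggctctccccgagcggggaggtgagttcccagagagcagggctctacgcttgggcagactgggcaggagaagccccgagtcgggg
Rprl3: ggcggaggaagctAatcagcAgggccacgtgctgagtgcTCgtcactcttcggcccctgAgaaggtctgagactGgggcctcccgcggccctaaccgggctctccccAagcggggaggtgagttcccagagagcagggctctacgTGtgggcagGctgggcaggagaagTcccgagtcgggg
Rprl2: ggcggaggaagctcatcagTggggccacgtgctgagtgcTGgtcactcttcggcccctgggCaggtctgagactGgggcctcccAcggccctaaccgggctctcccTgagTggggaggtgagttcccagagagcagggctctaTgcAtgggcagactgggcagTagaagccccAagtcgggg
Rprl1: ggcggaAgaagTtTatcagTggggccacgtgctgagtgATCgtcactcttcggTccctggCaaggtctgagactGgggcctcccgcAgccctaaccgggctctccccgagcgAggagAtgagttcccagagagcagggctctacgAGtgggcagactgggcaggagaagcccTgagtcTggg
In this stretch Rprl3 differed from Rpph1 at 11 bases, Rprl2 at 12 and Rprl1 at 17. Over the whole local alignment of 257 columns, 86.4% of columns were identical for Rprl3, 86.0% for Rprl2 and 84.0% for Rprl1. No window of 50 bases was identical between Rpph1 and any Rprl RNA, but 21 of the 241 windows of Rprl3 came within 1 mismatch of Rpph1. For Rprl2 and Rprl1 that number was 0, and within 2 mismatches it was 12 of 241 and 16 of 278. Rprl2 and Rprl3 shared 7 identical windows with each other. Reads from these 4 genes can therefore be hard to assign, and values of the Rprl genes are uncertain where Rpph1 is abundant. Rmrp, shown next to make the contrast, had no window within 5 mismatches of Rpph1.
Rmrp: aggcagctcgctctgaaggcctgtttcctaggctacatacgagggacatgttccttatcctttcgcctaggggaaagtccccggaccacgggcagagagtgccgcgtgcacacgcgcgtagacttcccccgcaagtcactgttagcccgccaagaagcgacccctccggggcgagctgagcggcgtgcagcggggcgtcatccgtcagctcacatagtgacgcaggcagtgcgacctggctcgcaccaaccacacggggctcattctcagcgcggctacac

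**Figure D1:**
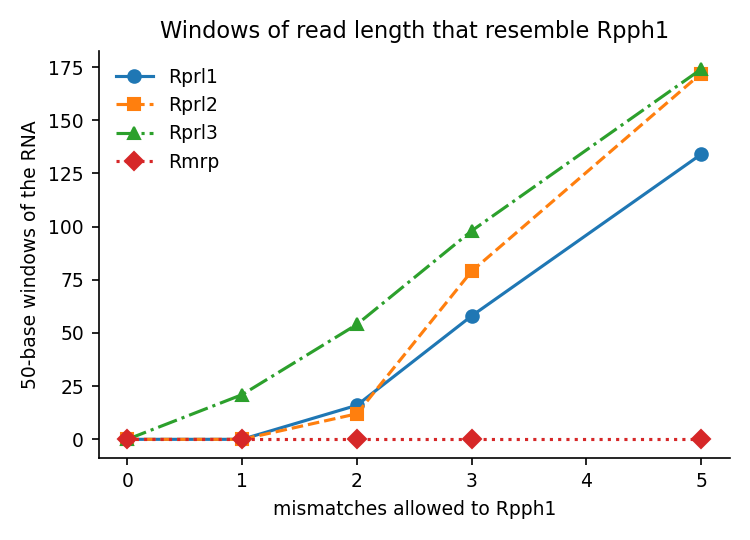
Number of 50-base windows of Rprl1, Rprl2, Rprl3 and Rmrp (vertical axis) that lie within a given number of mismatches of Rpph1 (horizontal axis, 0 to 5). Rprl3 reaches 21 windows at 1 mismatch and 98 at 3, while Rmrp stays at 0 throughout.

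Values were deposited as FPKM, a read level scaled by the length of the gene and by the mapped reads of its library. As recovered below, 1 read in TRAP 9 a.m. replicate 1 was worth 2.07 FPKM for Rpph1, 3.25 for Rmrp and 5.11 for Rprl3. Ratios of FPKM between these genes are therefore not ratios of reads. MicroRNA genes took 31.9% to 75.4% of the summed FPKM of a library. The ratios of low FPKM values between libraries gave their relative depth, from 0.782 to 3.32 times that of TRAP 9 a.m. replicate 1. The absolute depth is unknown. In supernatant 9 p.m. replicate 3 a different multiple fitted almost as well, so the reads given for that library may be off by a whole factor. Nothing in the labels says more about the replicates than their numbers, and the methods describe them as separate pools.

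Rpph1 lay far lower in RPL10A-associated RNA than in the supernatant, where it was the most abundant of the set. In TRAP libraries at 9 a.m. it reached 43.5, 67.7 and 87.5 FPKM (mean 66.2 ± 22.0, SD, n = 3). In supernatant libraries at 9 a.m. it reached 1845, 1409 and 2749 FPKM (2001 ± 683, SD, n = 3). Every supernatant library stood above every TRAP library, and the supernatant mean was 30.2 times the TRAP mean. At 9 p.m. the TRAP values were 244, 440 and 70.0 FPKM (251 ± 185, SD, n = 3), and the supernatant values 1511, 1864 and 5235 FPKM (2870 ± 2056, SD, n = 3). Again no library overlapped, with a ratio of means of 11.4. TRAP 9 p.m. replicate 3 stood apart from its group, at about the level of the 9 a.m. libraries. In log2(FPKM + 1), the mean of Rpph1 was lower in TRAP by 4.90 in the morning and by 3.64 in the evening. Taken pair by pair, since TRAP and supernatant libraries of a number and time share an animal number in the labels, the supernatant exceeded TRAP 42.5, 20.8 and 31.4 times at 9 a.m., and 6.18, 4.24 and 74.8 times at 9 p.m. In this difference, less association with tagged ribosomes and RNA from cells without the tag cannot be told apart. Nor, in these bulk samples, can fewer cells of a type and less RNA per cell.

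Across all genes tested, every TRAP library lay below every supernatant library for 6.8% of genes at 9 a.m. and for 7.0% at 9 p.m. Of the set, 2 of the 4 genes that passed the filter (mean FPKM above 1) did so at 9 a.m. and 2 of 5 at 9 p.m., each time Rpph1 and Rprl3. These counts use the contrast known when the symbols were chosen, and nothing is read from them.

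**Figure D2:**
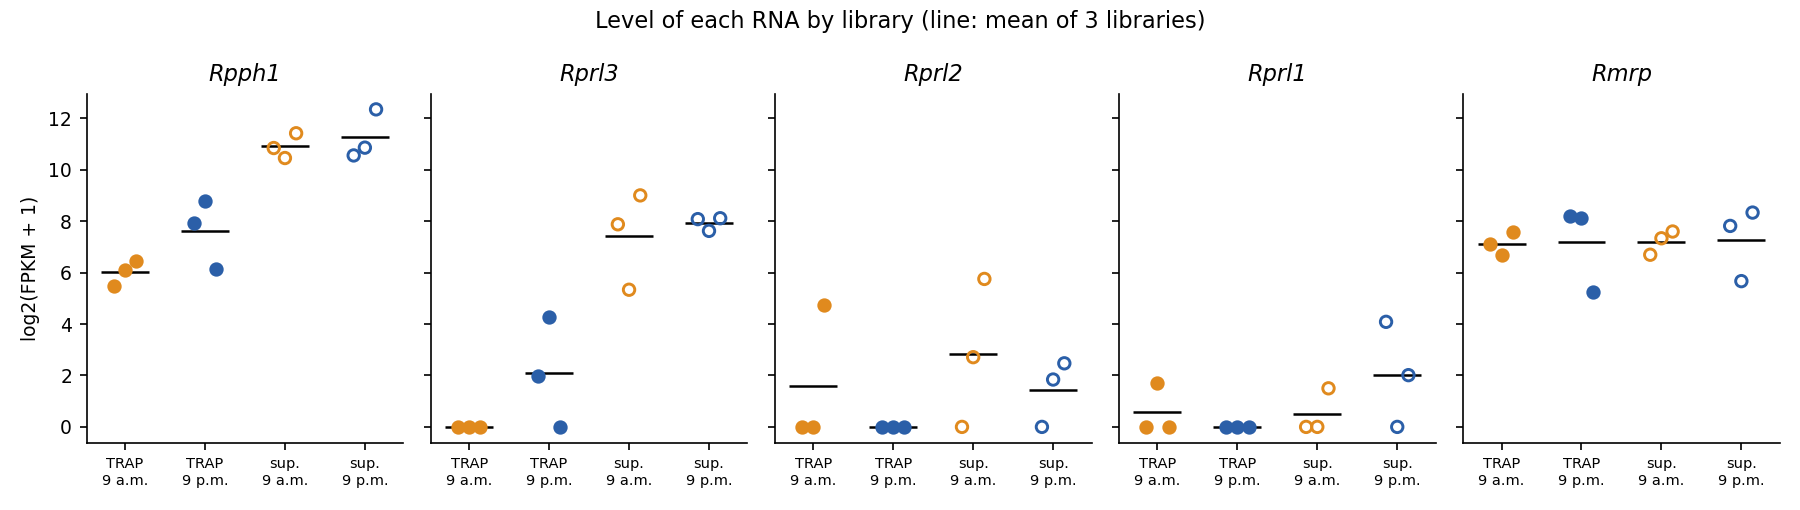
Level of each RNA in log2(FPKM + 1) (vertical axis) in TRAP (filled) and supernatant (open) libraries with the morning in orange and the evening in blue, 1 point per library, with lines at the means of the 3 log2 values. Rpph1 and Rprl3 separate TRAP from supernatant, Rmrp stays level, and Rprl1 and Rprl2 sit near 0 in most libraries.

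Rprl3, the closest of the Rprl RNAs to Rpph1, followed it across fractions at a lower level. It was listed at 0 in all 3 TRAP libraries at 9 a.m., where 1 read would be worth 5.11, 2.26 and 6.54 FPKM. At 9 p.m. the TRAP values were 2.90, 18.4 and 0 FPKM. The supernatant libraries gave 235, 39.4 and 514 FPKM at 9 a.m., and 270, 197 and 277 FPKM at 9 p.m. (248 ± 44.6, SD, n = 3). No TRAP library reached any supernatant library of its time. Expressed as a share of Rpph1 FPKM in the same library, Rprl3 stood at 12.7%, 2.80% and 18.7% in the morning supernatant, with 17.9%, 10.6% and 5.29% in the evening. These are not shares of reads, since in supernatant 9 a.m. replicate 1 Rprl3 had 74 reads against 1434 of Rpph1. In TRAP at 9 p.m. the share was 1.19%, 4.17% and 0%. Within the supernatant the share of Rprl3 ran from 2.80% to 18.7%, and the lowest rests on 14 reads of Rprl3. Whether reads of Rpph1 were assigned to Rprl3 was not tested.

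Rprl2 and Rprl1 rested on few reads. Rprl2 was listed at 0 in TRAP except in 9 a.m. replicate 3 (25.8 FPKM), and in the supernatant it reached 0, 5.55 and 53.1 FPKM at 9 a.m. and 0, 2.59 and 4.55 FPKM at 9 p.m. Rprl1 was listed at 0 in TRAP except in 9 a.m. replicate 2 (2.23 FPKM), and in the supernatant it reached 0, 0 and 1.83 FPKM at 9 a.m. and 16.0, 0 and 3.04 FPKM at 9 p.m. The groups overlapped for both genes. Terc was listed at 0 in all 12 libraries. Of 8 other small structured RNAs with a row, taken for comparison, 5 (Rnu11, Rnu12, Rnu7, Rnu73b and Rn4.5s) were listed at 0 in every library. So were 9753 of the 24327 genes kept, and nothing is read from these zeros. Bc1, a small cytoplasmic RNA of neurons, was above 0 only in supernatant replicate 3, at 93.1 FPKM at 9 a.m. and 8.58 at 9 p.m. Vaultrc5 had 70.4 and 105 FPKM in those libraries, and otherwise only 0.716 in TRAP 9 p.m. replicate 2. Their relative depth was estimated at 2.75 and 3.32, and whether replicate or fraction lies behind this was not tested.

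Reads could be recovered from FPKM for the 5 genes above 0, because values of 1 gene are multiples of what 1 read is worth in each library. The largest value per read that fitted was taken, so the reads of a gene may be too low by a whole factor. Rprl1 had 0 to 6 reads per library and Rprl2 0 to 29. Rprl3 had 0, 0 and 0 reads in TRAP at 9 a.m. and 1, 9 and 0 at 9 p.m., against 14 to 276 in the supernatant at 9 a.m. Rmrp had 22 to 330 reads over all libraries. For Rpph1, the read value first found left only 5 of 12 values within 0.1 of a whole number, and a stricter rule, set after seeing this, gave another value that left 10 of 12 within 0.1, including 6 of the 8 values above 100 reads that it had not been fitted on. Under the stricter rule Rpph1 had 21 to 74 reads per TRAP library at 9 a.m., 65 to 532 at 9 p.m., and 1235 or more in each supernatant library. In supernatant replicate 3 at both times the values of Rpph1, Rprl3 and Rmrp gave no whole number of reads, and those given are rounded.

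Rmrp overlapped between the fractions. It measured 136, 103 and 191 FPKM in TRAP at 9 a.m. and 103, 161 and 193 FPKM in the supernatant. At 9 p.m. TRAP gave 293, 281 and 37.1 FPKM and the supernatant 225, 49.96 and 323 FPKM. The means were 144 ± 44.4 and 152 ± 45.8 FPKM at 9 a.m. and 204 ± 144 and 199 ± 138 FPKM at 9 p.m. (SD, n = 3 each). At 9 p.m. 1 library in each fraction, TRAP replicate 3 and supernatant replicate 2, was several times lower than the other two.

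Rpph1 was set against Rmrp in the same library, which removes the scale of the library but not that of each gene. In FPKM it stood at 0.319, 0.656 and 0.458 times Rmrp in TRAP at 9 a.m. and at 0.835, 1.56 and 1.89 times at 9 p.m. In the supernatant the morning ratios were 17.9, 8.76 and 14.2, and the evening ratios 6.72, 37.3 and 16.2. Within TRAP every 9 p.m. library had a higher ratio than every 9 a.m. library, a difference of 1.56 in log2. The exact two-sided permutation p = 0.1 is the smallest that 3 against 3 allow, and nothing is read from it. The ratio also carries the spread of Rmrp. TRAP 9 p.m. replicate 3 had the highest TRAP ratio, with Rpph1 at 70.0 FPKM and Rmrp at 37.1 FPKM, each the lowest of its group. In the supernatant the times overlapped, with a difference of 0.29 in log2 and an exact permutation p = 0.9. That difference turned to -0.32 without 9 p.m. replicate 2 and was 0.91 without 9 p.m. replicate 1. The ratio was chosen after its values were seen, and it was not tested whether the difference between times differed between fractions.

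**Figure D3:**
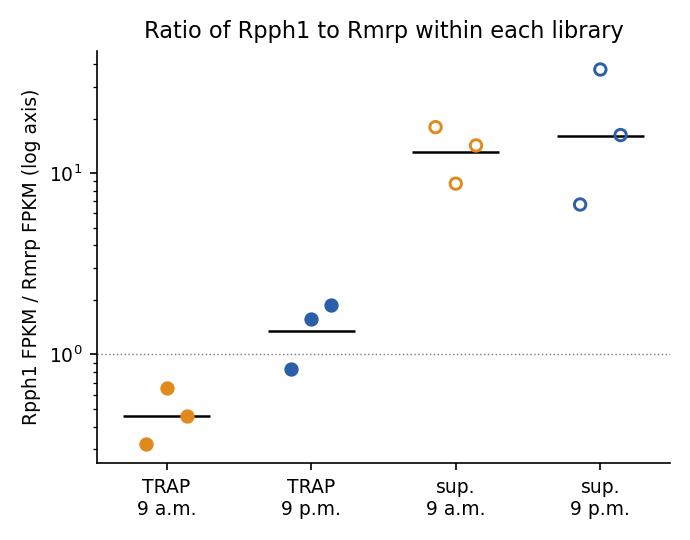
Ratio of Rpph1 to Rmrp FPKM within each library (vertical axis, log scale) by group, filled for TRAP and open for supernatant, with lines at the geometric mean of 3 libraries. TRAP libraries lie between 0.319 and 1.89 and supernatant libraries between 6.72 and 37.3.

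Comparing the evening with the morning, no gene of the set passed the test in either fraction. With limma and Benjamini-Hochberg adjustment, 0.0% of the 10563 genes tested in TRAP were called (0 genes, with 418 at an unadjusted p under 0.05), and 0.00903% of the 11075 genes tested in the supernatant (1 gene, lower at 9 p.m.). Rpph1 had a log2 fold change of 1.61 (SE 0.59, limma adjusted p = 0.941) in TRAP, where 2 of 3 libraries at 9 p.m. exceeded all at 9 a.m. The value was 1.03 without 9 p.m. replicate 2 and 2.35 without 9 p.m. replicate 3. In the supernatant it had 0.35 (SE 0.44, adjusted p = 0.974). Rmrp had 0.07 (SE 0.67, adjusted p = 0.996) in TRAP and 0.06 (SE 0.57, adjusted p = 0.998) in the supernatant. Rprl3 had 2.08 (SE 1.19, adjusted p = 0.941) and 0.53 (SE 0.69, adjusted p = 0.978). Rprl2 had -1.58 and -1.38, and Rprl1 1.53 in the supernatant, none with an adjusted p under 0.941. Rprl1 did not pass the filter in TRAP. Over all genes tested, the median change was 0.16 in TRAP and 0.03 in the supernatant. The times did not overlap for 8.63% of genes in TRAP and 8.7% in the supernatant, and for 0 of the 4 and 0 of the 5 genes of the set that passed the filter.

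**Figure D4:**
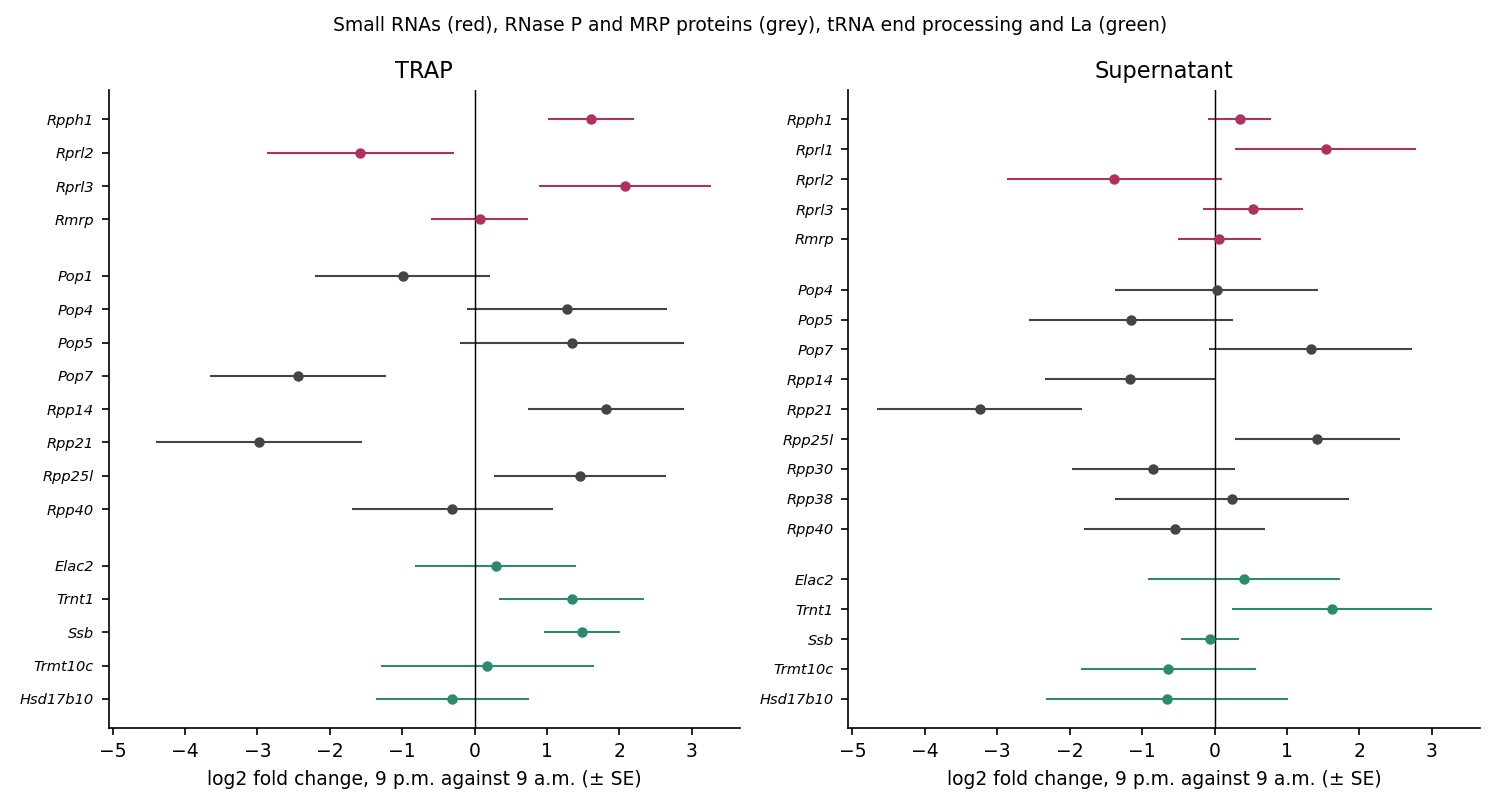
Log2 fold change from 9 a.m. to 9 p.m. with its SE (horizontal axis) for the small RNAs (red), the RNase P and MRP proteins (grey) and tRNA end processing and La (green), in TRAP and supernatant. No gene shown passed the test.

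The proteins that work with these RNAs were low and uneven. Of 11 protein subunits of RNase P and MRP, 8 were tested between times in TRAP, 4 higher and 4 lower at 9 p.m., and 9 in the supernatant, 4 higher and 5 lower. None passed the test. Their summed level ranged from 5.41 to 125 FPKM per library, and Rpp25 was listed at 0 in all. Rpp25l, a subunit of the Rpp25 family, measured 10.04, 30.3 and 0 FPKM in TRAP at 9 a.m. and 7.51, 31.2 and 24.8 FPKM at 9 p.m., against 0 to 12.4 FPKM in the supernatant. Rpp38 lay between 0 and 1.92 FPKM in TRAP and between 0 and 72.7 FPKM in the supernatant. Between fractions, 10 of the subunits were tested at 9 a.m. and 7 at 9 p.m., with medians of -0.10 and 1.06 (all genes -0.20 and -0.07), and none passed the limma test, which called 0.0463% of all genes at 9 a.m. and 0.0275% at 9 p.m.

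The mRNA for La (Ssb), which binds new RNA polymerase III transcripts at their 3′ end, had the highest mean over the 12 libraries of the 5 genes of tRNA end processing and La. In TRAP it measured 22.7, 26.4 and 14.1 FPKM at 9 a.m. and 74.5, 78.6 and 34.5 FPKM at 9 p.m. The times did not overlap, but the log2 fold change of 1.48 (SE 0.52) had a limma adjusted p = 0.941. In the supernatant the change was -0.06. For 11 small RNA promoter factors with a row, 8 were higher and 3 lower at 9 p.m. in TRAP (median 0.79, all genes 0.16). In the supernatant 10 were tested, 6 higher and 4 lower (median 1.12, all genes 0.03). None was called in either fraction. For 7 proteins of the 7SK particle and P-TEFb and 7 telomerase proteins, none was called between times or between fractions. The telomerase mRNAs were listed above 0 in every group although Terc was not, with Naf1 at 19.6 to 43.4 FPKM in TRAP at 9 a.m.

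Of 4 nuclear long noncoding RNAs, taken as a comparison for the fractions, 3 were tested at each time. Malat1, which is kept in the nucleus, was the 1 called. It measured 305, 271 and 311 FPKM in TRAP and 4035, 3513 and 3659 FPKM in the supernatant at 9 a.m. It was lower in TRAP by 3.66 in log2 (limma adjusted p = 1.96e-05) and at 9 p.m. by 4.07 (limma adjusted p = 0.000612). Neat1 had log2 differences of -1.999 at 9 a.m. (limma adjusted p = 0.324) and -2.454 at 9 p.m. (limma adjusted p = 0.818), without overlap. Meg3 had -0.26 (limma adjusted p = 0.979) and -1.35 (limma adjusted p = 0.826), and its fractions overlapped. Kcnq1ot1 did not pass the filter. Over all genes the medians were -0.20 and -0.07. Malat1 was also among the 5 genes whose profile lay nearest to that of Rpph1 over the 12 libraries, of 11156 genes, with a root-mean-square distance of 1.19 in centred log2(FPKM + 1). Alpl was nearest (1.04), followed by S1pr3 (1.18), Igfbp4 (1.18) and Drc1 (1.19). Alpl, an alkaline phosphatase, ranged from 0 to 1.93 FPKM in TRAP and from 7.81 to 40.2 FPKM in the supernatant. Rprl3 had a distance of 1.44 and Rmrp of 2.26. These distances include the difference between fractions known when the symbols were chosen, and nothing is read from them.

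Markers of other cell types were summed in each library, and some lists lay lower in TRAP while others overlapped between the fractions. The sum of 8 fibroblast and stroma markers was 7.74 to 38.9 FPKM in TRAP and 94.5 to 324 FPKM in the supernatant, and all 8 had a lower mean in log2(FPKM + 1) in TRAP at each time. Mgp, a matrix protein gene listed at 0 in the TRAP libraries at 9 p.m., was the 1 of them called, at 9 p.m. (limma adjusted p = 0.00802). Of 8 macrophage markers, 5 were listed at 0 in all TRAP libraries at 9 a.m. and 6 at 9 p.m. In the supernatant 1 was, at each time. Their sum at 9 a.m. was 0.0695 to 6.82 FPKM in TRAP and 6.18 to 13.6 FPKM in the supernatant, which overlapped. At 9 p.m. it was 0 to 3.21 FPKM in TRAP and 18.8 to 36.3 FPKM in the supernatant. The 3 tested at each time had median log2 differences of -0.20 and -1.30 (all genes -0.20 and -0.07). The sum of 6 endothelial markers was 0.489 to 9.51 FPKM in TRAP and 9.02 to 25.1 FPKM in the supernatant. Glia markers (4) summed to 1.05 to 73.0 FPKM in TRAP and 16.3 to 74.3 FPKM in the supernatant. Erythroid markers (3 of 4 with a row) summed to at most 0.01005 FPKM in TRAP and to 0 to 106 FPKM in the supernatant. Neuron markers (5) summed to 0.215 to 19.7 FPKM in TRAP and 2.93 to 14.4 FPKM in the supernatant, and of the 2 tested at 9 a.m. 1 was higher in TRAP and 1 lower. Hepatocyte markers went the other way at 9 a.m., with 4 of 4 tested higher in TRAP (median log2 difference 2.74) and none called. Their sum was 1.73 to 674 FPKM in TRAP and 6.83 to 14.6 FPKM in the supernatant at that time, and 0.636 to 73.2 FPKM and 1.61 to 134 FPKM at 9 p.m. The 9 epithelial markers, led by Ttr, summed to 39034 to 72710 FPKM in TRAP and 39680 to 53040 FPKM in the supernatant. What these cell types contribute to the difference in Rpph1 was not tested.

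Rpph1 and Rmrp overlap protein-coding genes in the annotation, and the strand setting of the counting is not given in the sources used here. Rpph1 overlaps the 5′ end of Ccnb1ip1 on the same strand and starts 35 bases before it. Ccnb1ip1 was listed at 0 in all libraries. Parp2 starts 74 bases from the start of Rpph1 on the other strand, and measured 0 to 42.4 FPKM. Ccdc107 overlaps part of Rmrp on the other strand and measured 0 to 63.2 FPKM, and reads in the shared part cannot be told apart without strand.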

How the data were processed

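RNA-seq libraries were prepared from TRAP and supernatant RNA of LV ChP. Per the methods, single-end 50 nt reads were mapped by STAR 2.4.0 to the mm10 genome. The FPKM that the authors deposited come from Cuffquant, and their annotation version is not given in the sources used here. Of 24354 genes, 27 whose names had turned into dates were left out. Times were compared with limma 3.58.1 (R 4.3.3) on log2(FPKM + 1), letting the prior variance follow intensity, where a gene's mean FPKM passed 1. Calls needed a p below 0.05 after Benjamini-Hochberg adjustment and a log2 change beyond 0.4 either way (0.3 for fractions). Fractions were described for the 7 genes without a test. Log2 differences understate changes of low genes. The fits were tested on simulated data, where many of the changed genes were not called, so a gene without a call may still have changed. A limit set first on the changed genes called was not met. It was replaced by checks on the estimates and on false calls. The mean estimates were close to the changes put in, which the way of simulating makes near certain. Relative depth and reads were derived from ratios of low FPKM values, with rules set after the values were seen.

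Genes, lists and the rule for named genes were chosen with earlier results of these data known. The rule takes the 7 genes, list members that passed a test or, at most, the 4 most abundant of a list, genes within 1 kb or overlapping, and the 5 nearest profiles to Rpph1. Bc1, Rpp25, Rnu11, Rnu12, Rnu7, Rnu73b and Rn4.5s were named for their zeros. Identity was computed with Biopython 1.88, and figures with Python 3.11.15 (matplotlib 3.10.9).

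The labels give the TRAP and supernatant library of a pair the same animal number. Their deviations from the group means correlated at -0.075 to -0.014. Across times the numbers are only numbers.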

Additional observations from a re-analysis of the deposited data

How the results depend on the processing

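Alternatives covered the pseudocount, the filter, 3 scalings, limma's trend and robust settings, 1 fit of all libraries, the replicate block, and each library left out. The genes called between times in TRAP numbered 0 to 5 with a library left out (5 without TRAP 9 a.m. replicate 2, 1 without TRAP 9 p.m. replicate 3). In the supernatant they numbered 0 without a filter, 0 without microRNA rows, 2 under quantile normalization, and 1 to 4 with a library left out (4 without supernatant 9 p.m. replicate 3). The replicate block gave 0 calls in TRAP and 1 in the supernatant. Across times it joins libraries by number alone, so nothing is read from it there. The 2 genes lower in TRAP without overlap were 2 in each pairing of the block at both times. With a library left out they numbered 2 to 3 at 9 p.m. and 2 to 2 at 9 a.m. Genes without overlap over all libraries must pass both checks, so these counts could not fall and nothing is read from them.

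Of 138 recomputed log2 fold changes between times, 126 kept their sign, 12 reversed and 0 were called. Rmrp in TRAP reversed under quantile normalization (-0.21), median of ratios (-0.0141) and without microRNA rows (-0.16), and without TRAP 9 a.m. replicate 2 (-0.15), 9 p.m. replicate 1 (-0.43) or 9 p.m. replicate 2 (-0.40). In the supernatant Rmrp reversed without 9 a.m. replicate 1 (-0.19), 9 p.m. replicate 1 (-0.21) or 9 p.m. replicate 3 (-0.47). Rpph1 reversed in the supernatant without 9 p.m. replicate 3 (-0.20), Rprl3 without 9 a.m. replicate 2 (-0.50) and Rprl2 without 9 a.m. replicate 3 (0.0826). With a library left out, Rpph1 ran from 1.03 to 2.35 in TRAP, Rprl3 from 2.08 to 3.12 (it failed the filter without 9 p.m. replicate 2, and was 4.15 with a pseudocount of 0.1) and Rmrp from -0.43 to 1.04, and in the supernatant Rmrp ran from -0.47 to 0.87, Rpph1 from -0.20 to 0.70, Rprl3 from -0.50 to 1.33 and Rprl2 from -2.80 to 0.0826. The causes were not tested.

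The lower level of Rpph1 in TRAP ranged from -5.12 to -4.63 in log2 at 9 a.m. and from -4.22 to -2.90 at 9 p.m. with a library left out. Of 96 recomputed fraction differences, 3 moved by more than the spread between replicates, all with a pseudocount of 0.1. Signs turned for Rprl2 at 9 a.m. without supernatant replicate 3 (0.23), and for Rmrp at 9 a.m. under median of ratios (0.05) or without TRAP replicate 2 (0.13) or supernatant replicate 3 (0.11), and at 9 p.m. without TRAP replicate 3 (0.89), supernatant replicate 1 (0.19) or supernatant replicate 3 (0.45). The unknown absolute depth and the few reads of Rprl1 and Rprl2 limit what can be said of either.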
